A study of Mus musculus with 194 samples.

Results

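The genes of presynaptic vesicle release were followed across a set of transposon calling-card libraries from mouse brain. They were the protein-coding genes of the GRCm38 annotation whose symbols begin with Syt, Stx, Stxbp, Snap, Vamp, Cplx, Rims, Unc13, Sv2 or Rab3 and go on with a number or a letter, together with Syn1, Syn2, Syn3, Syp, Bsn and Pclo. The rule found 104 genes of 21631 protein-coding genes on the autosomes and X. They comprised 22 Syt and Sytl genes, not all of which sense calcium, 19 target-membrane SNAREs, 12 SNARE regulators and 10 active zone and priming genes. There were also 8 vesicle SNAREs, 8 other vesicle proteins, and 8 genes of Rab3 and its regulators. The remaining 17 met the rule by symbol alone: 12 were other Rab GTPases (Rab30 to Rab39b) and 5 were Snapc genes, whose products form a transcription complex at small nuclear RNA genes. The value for each gene is the number of insertions in its body with 10 kb on each side, per 1000000 insertions of the animal's table, abbreviated IPM. Of the 104 loci so drawn, 65 overlapped another protein-coding gene, so an insertion there can belong to a neighbour.

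Each insertion is taken to mark a TTAA site where piggyBac transposase, delivered with the transposon by AAV injection at P0-1, had placed its transposon. The unfused hyperactive enzyme records where it lands by its own preference, and in the SP1 groups the transposase was fused to SP1, a transcription factor that binds GC-rich promoters. The cortex groups were C57bl6J with Cre-independent viruses (2 animals), Syn1Cre (6), Syn1CreNeg (6), GFAPCre (6), GFAPCreNeg (6), Frontflip_GFAPCre (3), Frontflip_GFAPCreNeg (3), Syn1Cre_SP1_P10 (3, taken at day 10) and Syn1Cre_SP1_P28 (4, day 28). Rbp4Cre_TRAP (4) was whole forebrain with TRAP RNA, which is drawn from tagged ribosomes, and BrokenHeart (3) was cortex whose insertions were read from DNA rather than from RNA transcribed off the transposon. Of the positions in promoter windows, 96.6%, 97.7% and 96.7% were at TTAA in the BrokenHeart animals and 100% in every other table. The Cre lines carry by name the promoters of Syn1, a neuronal gene that is itself among the 104, of Gfap, an astrocyte gene, and of Rbp4, a deep-layer neuron gene. The labels used here do not spell out what the Neg groups carried. Ages are labelled for the SP1 groups alone, so age and the SP1 fusion cannot be told apart in their comparison with Syn1Cre. A pooled table of N2a, a mouse neuroblastoma line, had no replicate.

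Vesicle release starts when a vesicle is docked at the active zone, a protein scaffold built on Bsn, Pclo and the Rims proteins, where Rab3 on the vesicle meets Rims and Unc13 primes the fusion machinery. The vesicle SNARE Vamp2 then zips with Stx1a and Snap25 on the plasma membrane, under the control of complexins and other regulators, and Syt1 senses the calcium that triggers fusion. Many relatives in these families work at other steps of membrane traffic and in other cells.

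The tables held 2341 to 2186743 insertions per animal. The 3 Frontflip_GFAPCreNeg tables held 2341 to 9601 and gave 82 insertions in the release gene loci, with 70 of the 104 loci at 0, so no release gene is compared there. Of 12 astrocyte marker loci, 0 of 11 tested passed the threshold between Syn1Cre and GFAPCre, and of 12 neuron marker loci 3 (Bcl11b, Gad1, Gad2) were higher in Syn1Cre. Summed insertions at the astrocyte markers were 725 to 2342 IPM in Syn1Cre animals and 923 to 1884 in GFAPCre animals, so the names of the Cre lines are kept here as names and not as cell types. More cells with insertions at a locus and more insertions recovered per cell cannot be told apart in such tissue.

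Promoter stretches of some release genes named below are printed first. Each is a RefSeq promoter window of GRCm38.p6, 250 bases before to 50 bases after an annotated start, read 5′ to 3′ on the gene's strand. In the first 4, capitals mark the GC box GGGCGG, a core of the SP1 recognition sequence, on either strand (CCGCCC on the other). These 4 genes were called higher within 1 kb of their starts in the SP1 animals at both ages under all 3 scalings used. Stx5a was too, and its window is printed further on. The starts of the first 4 genes, unlike that of Stx5a, passed the filter on low counts through the SP1 animals alone. They had to be high in SP1 to be tested, so their gains are descriptions.
Rab3d (chr9:21918134-21918433, - strand): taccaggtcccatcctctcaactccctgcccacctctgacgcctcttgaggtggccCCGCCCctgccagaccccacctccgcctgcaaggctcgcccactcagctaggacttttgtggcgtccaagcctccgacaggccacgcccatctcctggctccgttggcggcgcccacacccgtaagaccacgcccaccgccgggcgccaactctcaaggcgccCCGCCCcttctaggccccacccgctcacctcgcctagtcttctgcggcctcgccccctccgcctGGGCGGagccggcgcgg
Rab39 (chr9:53706183-53706482, - strand): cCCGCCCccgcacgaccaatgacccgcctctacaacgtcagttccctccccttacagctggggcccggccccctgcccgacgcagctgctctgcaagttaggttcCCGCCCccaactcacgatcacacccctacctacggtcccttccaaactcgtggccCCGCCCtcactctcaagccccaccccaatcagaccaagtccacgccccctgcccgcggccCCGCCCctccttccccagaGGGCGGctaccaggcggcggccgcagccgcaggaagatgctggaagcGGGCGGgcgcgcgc
Stx1a (chr5:135023232-135023531, + strand): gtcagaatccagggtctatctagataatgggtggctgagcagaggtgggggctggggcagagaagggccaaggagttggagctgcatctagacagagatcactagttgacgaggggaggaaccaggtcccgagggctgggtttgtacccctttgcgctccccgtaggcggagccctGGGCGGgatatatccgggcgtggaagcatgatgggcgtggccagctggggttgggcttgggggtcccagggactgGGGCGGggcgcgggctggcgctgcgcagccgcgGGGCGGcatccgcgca
Unc13b (chr4:43058703-43059002, + strand): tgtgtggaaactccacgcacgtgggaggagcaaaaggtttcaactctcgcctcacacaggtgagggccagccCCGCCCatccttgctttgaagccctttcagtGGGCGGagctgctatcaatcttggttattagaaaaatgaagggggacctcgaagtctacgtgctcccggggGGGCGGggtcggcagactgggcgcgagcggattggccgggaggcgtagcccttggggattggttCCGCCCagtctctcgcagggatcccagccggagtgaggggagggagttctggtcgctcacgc

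In the next 3 windows capitals mark TTAA, the site piggyBac uses, and they are shown because many animals carried insertions at the same letters. The Syt1 window is that of the more downstream of its pair of annotated starts.
Syt1 (chr10:109009062-109009361, - strand): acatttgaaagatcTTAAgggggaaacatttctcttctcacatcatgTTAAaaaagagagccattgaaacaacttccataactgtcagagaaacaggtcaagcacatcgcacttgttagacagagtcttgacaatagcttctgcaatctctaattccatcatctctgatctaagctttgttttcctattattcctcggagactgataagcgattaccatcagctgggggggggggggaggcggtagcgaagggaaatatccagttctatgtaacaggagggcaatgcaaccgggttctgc
Stx5a (chr19:8741174-8741473, + strand): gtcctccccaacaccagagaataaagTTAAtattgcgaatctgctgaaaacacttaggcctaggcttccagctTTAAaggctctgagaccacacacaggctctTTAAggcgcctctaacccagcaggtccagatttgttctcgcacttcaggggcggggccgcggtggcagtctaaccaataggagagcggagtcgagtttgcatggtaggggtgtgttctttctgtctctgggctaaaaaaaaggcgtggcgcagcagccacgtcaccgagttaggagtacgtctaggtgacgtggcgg
Stx6 (chr1:155158453-155158752, + strand): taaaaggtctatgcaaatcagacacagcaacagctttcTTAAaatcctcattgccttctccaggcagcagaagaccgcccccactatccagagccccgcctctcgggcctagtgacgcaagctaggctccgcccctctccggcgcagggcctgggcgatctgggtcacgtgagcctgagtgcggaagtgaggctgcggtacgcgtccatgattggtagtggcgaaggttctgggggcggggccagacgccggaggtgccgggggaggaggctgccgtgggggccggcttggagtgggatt

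The GC box stood in 64.7% of the 102 promoter windows of the 81 release genes that have an annotated start, and in 46.7% of 21045 windows of all protein-coding genes. The median GC content of the same windows was 61.2% for the release genes and 56.7% for all genes. Rab39 had 6 GC boxes, Unc13b 4, and Rab3d and Stx1a 3 each. Stx5a, also higher at its start under all 3 scalings at both ages, had 1 in the window printed above and 0 in its other window. Stxbp5, higher at its start in this way at P10, had 3. Windows of starts that were not called higher under all 3 scalings held them as well: Pclo had 4, Rims1 and Stx6 had 3 each, and Syt16, lower with TMM at both ages, had 2. The Stx6 and Stx5a boxes are in the windows printed above, left in lower case, and the upstream Syt1 window, not printed, had 1. TTAA stood in 43.1% of release gene windows and 48.1% of all windows. A match of letters is not a binding site, and whether GC boxes go with gains at starts was not tested. In the Stx6 window, the TTAA at chr1:155158491-155158494 carried 192 insertions from 39 of the 46 animals. In the Stx5a window, the TTAA at chr19:8741277-8741280 carried 193 insertions from 39 animals, and the next one upstream at chr19:8741247-8741250 carried 179 from 37 animals. The Syt1 window had 174 insertions from 35 animals at chr10:109009311-109009314 and 112 from 30 animals at chr10:109009344-109009347. The same letters were thus hit again and again, and 1 table can list 1 site several times because the cortex was divided before library preparation.

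Release gene loci took between 0.67% and 0.826% of all insertions in the groups other than the sparse Frontflip_GFAPCreNeg. The mean share was 0.718% ± 0.00212 (SD, n = 2) in C57bl6J, 0.826% ± 0.0263 (n = 6) in Syn1Cre, 0.737% ± 0.0322 (n = 6) in Syn1CreNeg, 0.813% ± 0.0443 (n = 6) in GFAPCre and 0.76% ± 0.0481 (n = 6) in GFAPCreNeg. In the SP1 groups it was 0.798% ± 0.0321 (n = 3) at P10 and 0.82% ± 0.0467 (n = 4) at P28, and in BrokenHeart 0.67% ± 0.0215 (n = 3). It was 0.738% ± 0.0344 (n = 3) in Frontflip_GFAPCre and 0.792% ± 0.0783 (n = 4) in Rbp4Cre_TRAP. The means of both SP1 groups lay within the range of the Syn1Cre animals (0.786% to 0.866%), while single loci differed in both directions. Per kb of locus, the median release gene had 0.482 IPM in C57bl6J against 0.296 for the median protein-coding gene.

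The loci differed widely among themselves. In C57bl6J the highest IPM per kb were at Syt4, a synaptotagmin of neuropeptide vesicles, with 4.65 and 5.02 in the 2 animals. Snap25, the target-membrane SNARE of neurons, followed with 2.19 and 2.15, Syt1 with 2.08 and 2.12, Syt3 with 1.49 and 1.5, and Rab3c, a Rab3 relative on vesicles, with 1.4 and 1.39. Snap25 and Syt1 lay close together and both stood below Syt4 in each animal. At the other end were Sytl5 with a mean of 0.0784, Snap47 with 0.0702, Sytl4 with 0.0666 and Syt8 with 0.0469, while Vamp7 had 0 insertions in every table of the brain groups and of N2a. Syt1, spread over 533 kb with its flanks, held 4190 insertions in C57bl6J, and 25% to 27.8% of the body insertions of the strand-annotated release genes in C57bl6J, Syn1Cre, Syn1CreNeg, GFAPCre, GFAPCreNeg, Frontflip_GFAPCre and Rbp4Cre_TRAP.

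Among 14 core genes of release in the 6 Syn1Cre animals, the order per kb ran from Snap25 (3.32 IPM per kb) through Syt1 (2.54), Sv2a (1.47), Cplx2 (1.45), Bsn (1.03), Rims1 (0.89), Rab3a (0.752), Vamp2 (0.743), Syp (0.705), Stx1a (0.577), Syn1 (0.469), Pclo (0.413) and Cplx1 (0.317) to Unc13a (0.255). Neighbours in this order such as Sv2a and Cplx2, or Rab3a, Vamp2 and Syp, lay within each other's spread. At Sv2a, 26.9% of the locus insertions of all brain groups lay at 1 site in the flank, 9195 bases from its start. Syt1 had 1275, 1339 and 1466 IPM as the lowest, median and highest Syn1Cre animal. Snap25 had 266, 286 and 344, and Rims1, which ties Rab3 and calcium channels to the active zone, had 413, 486 and 522. Other core loci were thinly covered, as Vamp2 with 14.6, 18.5 and 20.3 IPM and Unc13a with 9.03, 17.1 and 23.9.

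The levels of several core genes in the other groups with the unfused transposase read from RNA, leaving out the sparse Frontflip_GFAPCreNeg, were as follows, as mean ± SD. Syt1 (GRCm38 chr10:108497650-109010980) had 1121 ± 15.9 IPM in C57bl6J, 1407 ± 131 in GFAPCre, 1229 ± 159 in GFAPCreNeg, 1167 ± 189 in Syn1CreNeg, 1162 ± 61.2 in Frontflip_GFAPCre and 1238 ± 263 in Rbp4Cre_TRAP. These means ran from 1121 to 1407, against 353 and 623 in the SP1 groups at P10 and P28. Snap25 (chr2:136713439-136782428) had 193 ± 2.51 in C57bl6J, 283 ± 28 in GFAPCre, 278 ± 58.3 in Syn1CreNeg, 272 ± 33 in GFAPCreNeg and 354 ± 78.7 in Rbp4Cre_TRAP. Rims1 (chr1:22285972-22806158) had 401 ± 2.35 in C57bl6J, 465 ± 56.8 in GFAPCre, 366 ± 61 in Syn1CreNeg, 399 ± 87.4 in GFAPCreNeg, 364 ± 62.2 in Frontflip_GFAPCre and 477 ± 71.1 in Rbp4Cre_TRAP. Apart from Syn1Cre, given above, Bsn ranged from 93.5 ± 11.3 in C57bl6J to 176 ± 51 in Rbp4Cre_TRAP, whose 4 tables held 24408 to 57014 insertions. Cplx1 ran from 5.67 ± 3.59 in GFAPCreNeg to 17.4 ± 23.6 in Rbp4Cre_TRAP, and Syp, a membrane protein of vesicles, from 6.24 ± 12.5 in Rbp4Cre_TRAP to 21.5 ± 5.82 in GFAPCre.

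**Figure D1:**
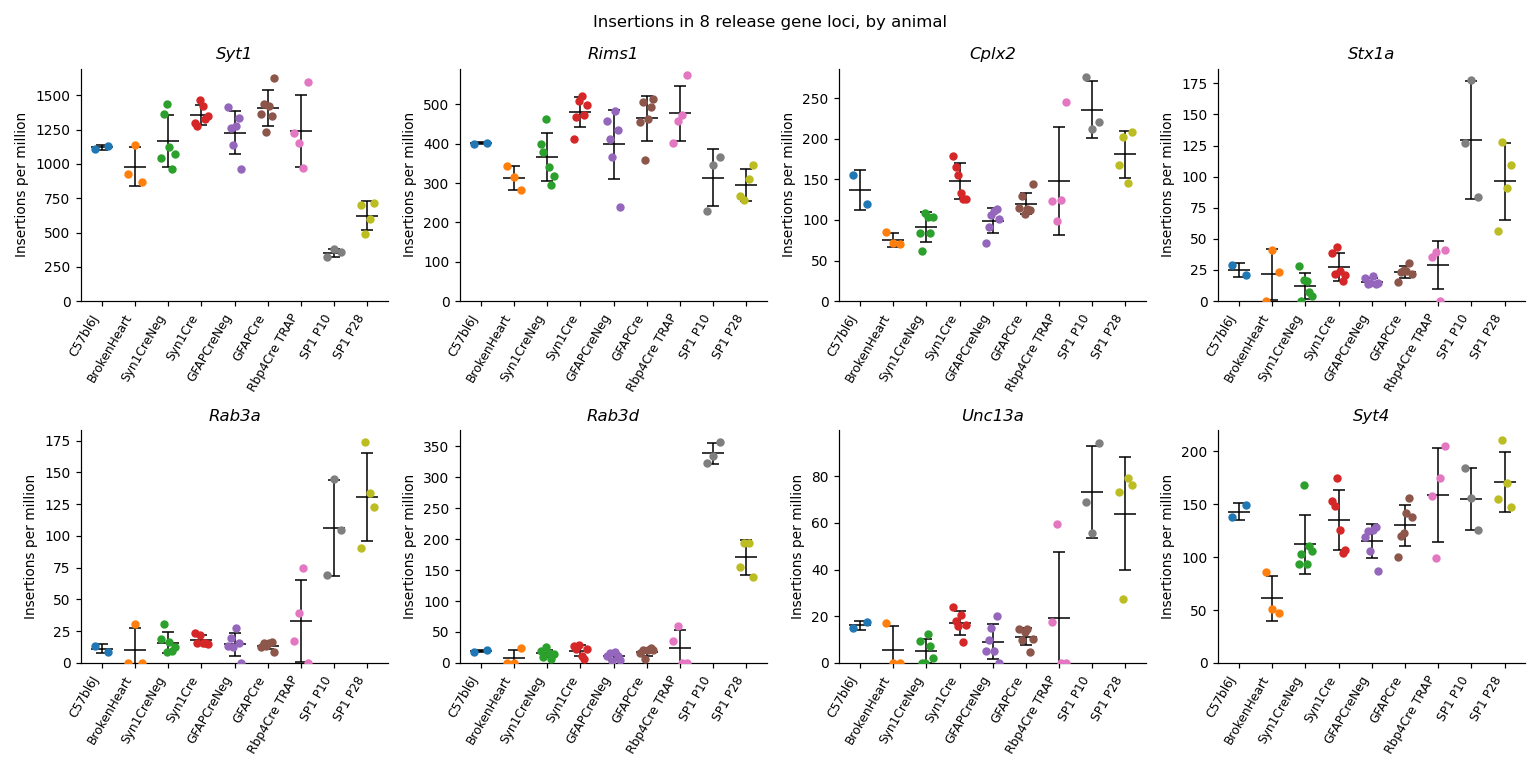
Insertions per 1000000 insertions (IPM, vertical axes, 1 per gene, from 0) in the locus of 8 release genes, 1 point per animal in 9 groups, with the group mean as a long line and its SD as the error bar. Syt1 stands at 322 to 379 IPM in the SP1 P10 animals, while Rab3d stands at 322 to 357 there and at 6.77 to 29.1 in Syn1Cre.

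The lines named for Syn1 and for Gfap were compared first, Syn1Cre against GFAPCre. Rab3b (chr4:108879070-108943324), a Rab3 GTPase of vesicle docking, was the 1 release gene locus past the threshold (edgeR quasi-likelihood test, Benjamini-Hochberg adjusted over all loci tested), of 86 tested, 1.16%. Over all loci 2.15% were called, so the share among release genes was no higher than the background. Rab3b had 38.4, 54.2 and 67.8 IPM as the lowest, median and highest of 6 Syn1Cre animals, and 18.3, 32.8 and 36.5 in GFAPCre. Every Syn1Cre animal lay above every GFAPCre animal. The log2 difference came to 0.75 (SE 0.15, adjusted p = 0.00519). Without Syn1Cre animal 3 or 5, with total insertions as the scale or with distinct positions there were 2 calls, and 3 in gene bodies alone or in animals 1 to 3 of each group. Syt6 (0.78, SE 0.24, adjusted p = 0.0919) and Unc13a (0.61, SE 0.23, adjusted p = 0.171), a vesicle priming factor, gave values above 0 and did not pass. The lowest values were those of Vamp8 (-0.58), Vamp4 (-0.39) and Unc13d (-0.36), with adjusted p from 0.228 to 0.319, and 14 release genes had an unadjusted p under 0.05. The median log2 fold change was 0.04 for the release genes and -0.00 for all loci. Of 45 other genes of vesicle release, 41 were tested, and Slc17a6, a vesicular glutamate transporter, and Sncb, a synuclein, were higher. The 2 groups were never sequenced in 1 pool, and the effect of the pools cannot be told apart from theirs.

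Syn1Cre was then set against Syn1CreNeg, the group labelled Neg for the same Cre line. Of 69 release gene loci tested 16 were called, 11 higher and 5 lower in Syn1Cre, or 23.2%, against 31.0% of all 8613 loci, a smaller share than the background. Over all loci 1161 calls were higher and 1505 lower in Syn1Cre. Of the 16, 14 were called the same way under 3 scalings, all but Syt7 and Stx18. The higher loci included Stx1a, Rab3b, Syt13, Cplx2, Stxbp5l, Sv2c, Syt16, Syt7, Rims1 and Rab3c, and the 5 lower ones Syt11, Unc13d, Rab34, Stx18 and Rab31. By role, 3 SNARE regulators of 7 tested, 3 Syt or Sytl genes of 14 and 2 Rab3 genes of 5 were higher. So was 1 each of the active zone, vesicle protein and target-membrane SNARE genes. Among genes in by symbol alone, 0 were higher and 2 of 9 were lower. The median was 0.22 for the release genes and 0.01 for all loci.

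Rab3b again stood apart, at 53.5 ± 9.38 IPM in Syn1Cre and 26.3 ± 9.32 in Syn1CreNeg (SD, n = 6 each), with no overlap between the animals, 0.93 higher on the log2 scale (SE 0.20, edgeR adjusted p = 0.000913). The same Syn1Cre animals serve here and above. Cplx2, a complexin that clamps and promotes fusion, had 148 ± 22.2 against 91.1 ± 18.2, a log2 difference of 0.60 (SE 0.14, adjusted p = 0.0017). Syt13 had 80.1 ± 7.02 against 43 ± 20, 0.76 on that scale (SE 0.19, adjusted p = 0.0033). In both genes the animals of the groups did not overlap. Stx1a had the highest fitted value, 1.31 (SE 0.37, adjusted p = 0.00915), on 153 insertions against 19, and its animals overlapped. Syt11, a synaptotagmin that does not bind calcium, was the lowest at -1.11 (SE 0.22, adjusted p = 0.000337), with 22.1 ± 5.14 against 39.5 ± 11.1 and overlapping animals. Unc13d, a priming factor of immune cells, came next (-0.81, SE 0.21) and did not overlap, and Rab34 (-0.75, SE 0.23), Stx18 (-0.65, SE 0.22) and Rab31 (-0.54, SE 0.13) did. Astrocyte marker loci moved at the same time: 9 of 10 tested were lower in Syn1Cre, and their summed level was 725 to 2342 IPM in Syn1Cre and 2404 to 3117 in Syn1CreNeg. Their part in the release gene values was not tested. Of the other vesicle release genes 7 of 31 were higher and 2 lower. No pool held Syn1Cre with Syn1CreNeg, and the tables of Syn1CreNeg held fewer insertions (97519 to 556145 against 443158 to 1364948).

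In GFAPCre against GFAPCreNeg, 3 of 71 release gene loci were called, all lower in GFAPCre, 4.23% against 8.19% of all 9203 loci. Most calls over all loci were lower in GFAPCre too, 554 against 200 higher. Unc13c, an Unc13 priming factor, had 84.9, 92.4 and 107 IPM as the lowest, median and highest GFAPCre animal and 112, 128 and 154 in GFAPCreNeg, with no overlap (edgeR log2 fold change -0.42, SE 0.12, adjusted p = 0.0223). Stx18, a syntaxin of the endoplasmic reticulum, had 31.3 ± 2.75 against 50.2 ± 12 (log2 fold change -0.64, SE 0.17, adjusted p = 0.0142). Snap23, the SNAP-25 relative of non-neuronal cells, had 29.4 ± 5.36 against 42.9 ± 10.5 (-0.65, SE 0.17, adjusted p = 0.0172), and animals overlapped for both. In edgeR on the animals that share a sequencing pool, with the pool as a block, 0 of 76 release gene loci passed, beside 37 of all 9587 loci (0.386%). Stx18, Snap23 and Unc13c had values of -0.79, -0.72 and -0.44 in that fit. Without GFAPCre animal 3 there were 7 calls, without GFAPCre animal 5 there were 5, without GFAPCreNeg animal 1 there was 1, and in gene bodies alone 6. Of the astrocyte marker loci 4 of 11 were lower in GFAPCre as well, with a summed level of 923 to 1884 IPM against 1655 to 3485, and their part was not tested. Rims3, Stx1a and Vamp9 had the highest values (0.60, 0.53 and 0.51) and did not pass. The median was 0.11 for the release genes and 0.02 for all loci. Whether the effect of Cre differed between the lines was tested by the difference of both contrasts, a fit chosen after the data were seen. It called 64 of 10550 loci (0.607%) and 0 of 82 release genes by edgeR, with 5 at an unadjusted p under 0.05. The lowest adjusted p among release genes was that of Rab31 (0.196, log2 difference -0.63, SE 0.22).

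**Figure D2:**
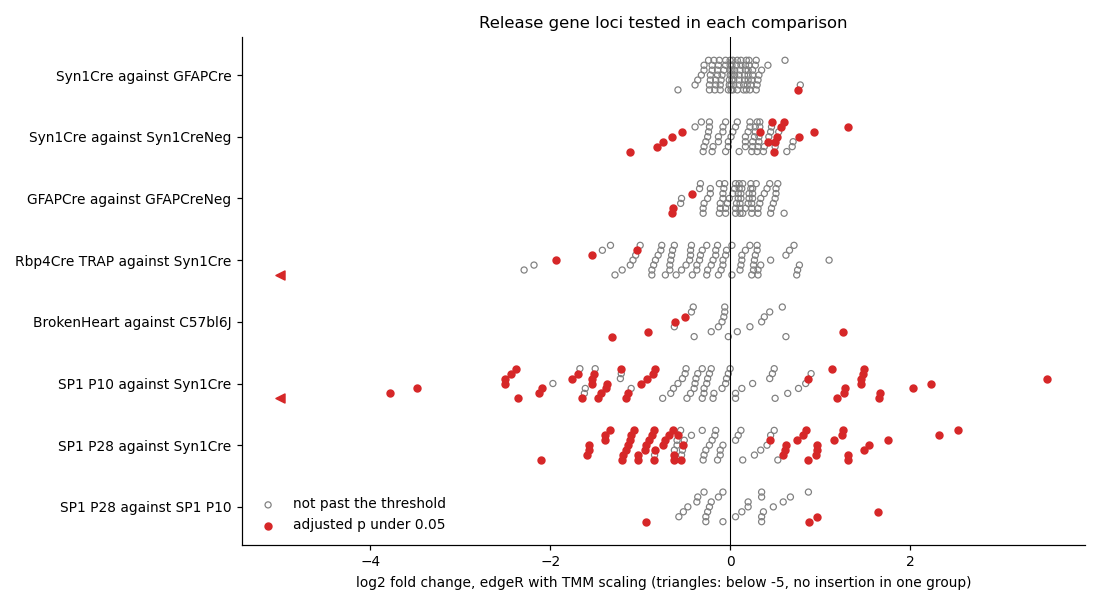
Log2 fold change (horizontal axis, edgeR with TMM scaling) of every release gene locus tested in 8 comparisons, 1 point per gene, filled red where the adjusted p is under 0.05, with triangles for genes with no insertion in 1 group, drawn at the edge. Syn1Cre against Syn1CreNeg runs from -1.11 at Syt11 to 1.31 at Stx1a, and the 2 SP1 comparisons against Syn1Cre spread on both sides, from -2.10 at Stx19 to 2.53 at Rab3d for P28.

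The groups with SP1 fused to the transposase differed from Syn1Cre at many release gene loci. At P28 53 of 84 loci tested differed from Syn1Cre (21 higher, 32 lower), 63.1% against 51.5% of all 12053 loci. At P10 41 of 89 differed (14 higher, 27 lower), 46.1% against 40.8% of 12861. Of the loci tested, 7 at P28 and 4 at P10 passed the filter on low counts through the SP1 animals alone. These could be tested only because of their SP1 insertions, so the counts of higher loci are descriptions. The split depends on the scaling. With TMM factors, 50.8% of all calls at P28 and 48.1% at P10 were higher in SP1, whereas scaling by total insertions made it 80.4% and 76.1%, as the median locus moved from -0.06 to 0.42 at P28 and from -0.28 to 0.27 at P10. Release genes then split into 30 higher and 15 lower at P28, and 21 higher and 17 lower at P10. Called the same way under TMM, total insertions and DESeq2 size factors were 31 loci at P28 (16 higher, 15 lower) and 30 at P10 (13 higher, 17 lower). The share of all loci called the same way under the 3 scalings was not counted, so these counts are descriptions. The median release gene went from -0.31 to 0.16 at P28 and from -0.40 to 0.15 at P10 with the change of scaling, so its direction flips, and it lay below the median of all loci under both. Both comparisons use the same 6 Syn1Cre animals, and their calls shared 39 loci, 73.6% of those at P28 and 95.1% of those at P10. In gene bodies alone 29 loci were called at P28. SP1 and Syn1Cre animals were never in 1 pool. Neuron markers moved as well, with 3 of 12 higher and 5 lower at P28 and 3 higher and 6 lower at P10, and of the astrocyte markers 1 of 12 was higher at P28 and 3 lower at P10. Their part in the release gene values was not tested.

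Rab3d and Rab3a, GTPases that bring vesicles to the active zone, held the highest fitted values at P28. At the Rab3d locus (chr9:21907491-21918199) the 6 Syn1Cre animals had 6.77, 22.3 and 29.1 IPM as lowest, median and highest, the P10 animals 322, 334 and 357, and the P28 animals 155, 193, 194 and 139. All SP1 animals lay above all Syn1Cre animals. On the log2 scale P10 was higher by 3.52 (SE 0.27, edgeR adjusted p = 9.22e-11) and P28 by 2.53 (SE 0.23, adjusted p = 1.6e-09). Rab3a, the main Rab3 of synaptic vesicles, had 18 ± 4.06 in Syn1Cre, 106 ± 37.9 at P10 and 130.4 ± 34.6 at P28, or 2.03 (SE 0.34, adjusted p = 3.15e-05) and 2.32 (SE 0.21, adjusted p = 1.62e-09) higher on the log2 scale. Its locus also holds starts of other genes: of 162 SP1 insertions there, 25 lay within 1 kb of a Rab3a start and 81 within 1 kb of a neighbour's, while at Rab3d 182 of 261 lay near its own start and 58 near a neighbour's. Rab3il1, an exchange factor for Rab3, was higher at both ages, with 85 of its 142 SP1 insertions near a neighbour's start. Rab3c ran the other way, at 338 ± 13.5 in Syn1Cre and 217 ± 19.6 at P28 (log2 fold change -1.10, SE 0.15, adjusted p = 1.05e-06).

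Among the priming factors Unc13b had 124 ± 11.1 IPM in Syn1Cre (SD, n = 6), 445 ± 39 at P10 (n = 3) and 348 ± 47.1 at P28 (n = 4), or 1.28 higher on the log2 scale at P10 (SE 0.17, edgeR adjusted p = 8.1e-07) and 0.96 higher at P28 (SE 0.14, adjusted p = 2.83e-06). Of its 477 SP1 insertions 35 were within 1 kb of its own start and 190 within 1 kb of a start of Atp8b5 or Fam214b, the genes that overlap it. Unc13a was higher at 73.1 ± 19.7 and 64 ± 24.4 against 17.2 ± 5.03 (1.48, SE 0.39, and 1.49, SE 0.25), and Rims4 at 324 ± 9.65 and 259.5 ± 54.8 against 101 ± 5.08 (1.13, SE 0.18, and 0.81, SE 0.15). All SP1 animals were above all Syn1Cre animals for each of these genes. Rims4 had no annotated start, and within 1 kb of either end lay 0 of its 88 insertions at P10 and 3 of its 250 at P28. The large scaffold genes ran the other way. Pclo had 81.3 ± 18.7 at P10 and 89.7 ± 16.2 at P28 against 152 ± 27.7 (-1.47, SE 0.30, and -1.19, SE 0.20), and Rims1 314 ± 73.5 and 295 ± 41.1 against 481 ± 39.1 (-1.16, SE 0.19, and -1.16, SE 0.16), without overlap in either gene. Bsn was lower at P10 (39.9 ± 20.9 against 117 ± 13.4, -2.09, SE 0.32), and at P28 it passed with TMM scaling (-0.55) but not by total insertions (-0.08).

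Of the target-membrane SNAREs, Stx1a had 15.8, 22.8 and 43.7 IPM as the lowest, median and highest Syn1Cre animal, 127, 178 and 83.9 in the P10 animals and 56.1, 128, 91.1 and 109 in the P28 animals. No SP1 animal overlapped Syn1Cre. It was higher by 1.67 on the log2 scale at P10 (SE 0.35, edgeR adjusted p = 0.000496) and by 1.31 at P28 (SE 0.25, adjusted p = 9.91e-05), and 0 of its 140 SP1 insertions lay near a neighbour's start. Stx5a, a Golgi syntaxin, was higher at 1.66 (SE 0.20) and 1.24 (SE 0.17), but 217 of its 268 SP1 insertions lay within 1 kb of a start of the genes that overlap it, 87 of them near its own start too. Snap25 was lower at P10 (196 ± 30 against 295 ± 31.2), while at P28 it stood at 289 ± 19.7, a value of -0.52 with TMM and of -0.04 by total insertions. Stx19 was the lowest at P28, with 8 insertions in 4 animals (-2.10, SE 0.42, adjusted p = 0.000162). The vesicle SNARE Vamp2 rose at both ages, from 17.7 ± 2.26 to 58.4 ± 13.9 and 54.8 ± 13.7 (1.19, SE 0.39, and 1.26, SE 0.23). Stx18 had 1 insertion in the P10 animals against 166 in Syn1Cre, a ratio of 8.1 between Syn1Cre and P10 with a 95% counting interval of 1.43 to 322.

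Of the Syt and Sytl genes, 8 of 15 tested were lower and 1, Syt3, higher at P28, and 6 of 17 lower and 0 higher at P10. Over all loci 51.5% at P28 and 40.8% at P10 were called in either direction. Under all 3 scalings 5 of the Syt and Sytl genes were lower and 0 higher at P28, and 4 lower and 0 higher at P10, with no such count over all loci. Syt1 had 1275, 1339 and 1466 IPM in the lowest, median and highest Syn1Cre animal, 322, 379 and 357 at P10, and 699, 486, 595 and 713 at P28. The 3 sets did not overlap. The fitted log2 values were -2.50 at P10 (SE 0.17, edgeR adjusted p = 1.33e-11) and -1.59 at P28 (SE 0.15, adjusted p = 5.84e-09), and by total insertions -1.94 and -1.10. Syt16 stood at 387 ± 19 in Syn1Cre, 208 ± 65.5 at P10 and 189 ± 72.9 at P28, and Syt10 at 42.6 ± 5.92, 11.2 ± 11.5 and 18.8 ± 9.49. Both were called lower at both ages under all 3 scalings, as was Sytl2, a Rab27 effector, at P28 (-1.57, SE 0.32). The Syt10 value at P10 rests on 3 insertions against 244, a ratio of 3.97 with an interval of 1.34 to 19.4.

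Among vesicle proteins, Sv2a, a vesicle glycoprotein that binds the drug levetiracetam, had 49.8 ± 7.92 IPM in Syn1Cre, 173 ± 14.7 at P10 and 128 ± 18.3 at P28 (log2 fold changes 1.27, SE 0.24, and 0.84, SE 0.17), but 116 of its 175 SP1 insertions lay near a neighbour's start and 7 near its own. Syn2, a synapsin that tethers vesicles, was lower at both ages (-1.65, SE 0.25, and -1.20, SE 0.17), as was Sv2b (-2.13, SE 0.25, and -1.34, SE 0.22). Syn1 had 1 insertion in the 3 P10 animals against 203 in Syn1Cre, a ratio of 9.91 between Syn1Cre and P10 with a 95% counting interval of 1.76 to 393. Snapin, a SNARE-associated protein, had 0 against 80 and was at least 1.3-fold lower, taking the floor of 3 counts over the group. Of the SNARE regulators 0 were higher at either age, and 4 of 8 tested at P28 and 4 of 10 at P10 were lower, beside 51.5% and 40.8% of all loci called in either direction. Under all 3 scalings 1 was lower at P28 and 2 at P10, with no such count over all loci. Of the genes in by symbol alone, Rab39 was higher at both ages (2.23, SE 0.40, and 1.75, SE 0.27), with 64.1% of its 78 SP1 insertions within 1 kb of its start. Snapc2 was higher at P28 (1.54, SE 0.26) and Snapc3 lower at both ages (-2.44, SE 0.52, and -1.39, SE 0.27). The Rab39 locus at both ages and the Snapc2 locus at P28 passed the filter on low counts through the SP1 animals alone, so their values are descriptions. Rab33b had 3 insertions at P10 against 223 in Syn1Cre, a ratio of 3.63 (1.23 to 17.7), and Vamp9 had 3 against 221, a ratio of 3.59 (1.21 to 17.6). Of the 45 other vesicle release genes, 12 were higher and 17 lower of 43 tested at P28, and 6 higher and 19 lower of 42 at P10.

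**Figure D3:**
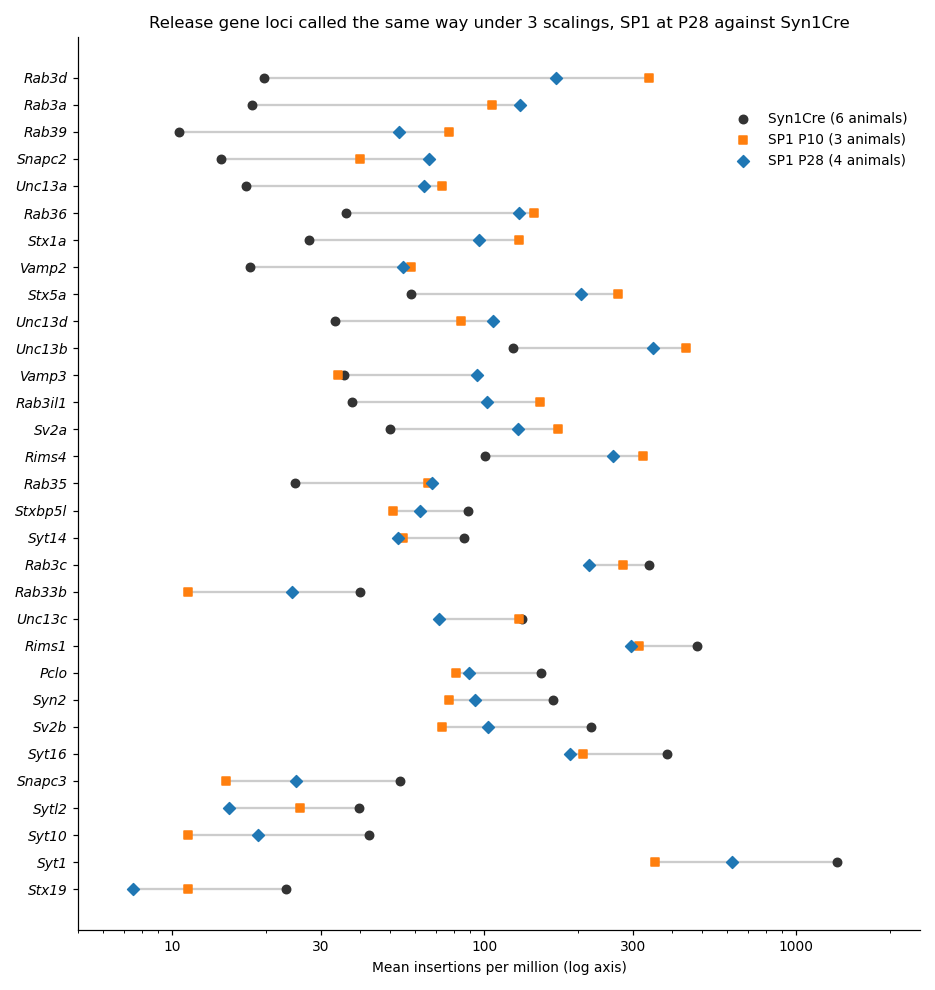
Mean IPM (horizontal log axis) in Syn1Cre, SP1 P10 and SP1 P28 at the 31 release gene loci called the same way under 3 scalings at P28, each gene a line joining its 3 group means. The 16 loci at the top are higher at P28 than in Syn1Cre and the 15 below lower, with Rab3d going from 19.7 to 170.2 and Syt1 from 1356 to 623.

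Counted within 1 kb of annotated starts, the release genes gained insertions in every SP1 animal. The mean per start was 4.21 ± 0.313 IPM in Syn1Cre (SD, n = 6; 3.81 to 4.49), 17.5 ± 1.5 at P10 (n = 3; 16.1 to 19.1) and 13.4 ± 1.93 at P28 (n = 4; 11.1 to 15.5). The ranges did not overlap between Syn1Cre and either SP1 group. All protein-coding genes went from 2.87 ± 0.272 to 10.8 ± 0.608 and 9.29 ± 1.41, so starts of all genes were higher too. In BrokenHeart, read from DNA, the release genes had 4.37, 4.99 and 8.99 in the 3 animals and all genes 4.14 ± 0.401, while C57bl6J, read from RNA, had 3.38 ± 0.0212 (n = 2) and 2.31 ± 0.0566.

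Among single starts 19 release genes could be tested at P28 and 22 at P10. Of these, 13 at each age passed the filter on low counts through the SP1 animals alone, Rab3d, Stx1a, Rab39 and Unc13b at both ages and Stxbp5 at P10 among them. Such starts had to be high in SP1 by total insertions to be tested, so the counts and medians that follow are descriptions and support no direction. With no such filter, Rab3d (3.13), Stx1a (2.67), Rab39 (2.59) and Unc13b (2.29) also passed as higher at P28. By total insertions, 16 were higher and 0 lower at P28, and 15 higher and 0 lower at P10. With TMM factors, which set the typical tested start near 0, 6 were higher and 7 lower at P28 (68.4%, against 63.9% of all 3184 starts tested) and 7 higher and 8 lower at P10 (68.2%, against 59.4% of 3262). Of all calls 53.2% at P28 and 48.6% at P10 were higher with TMM, and 98.6% and 98% by total insertions. The median start moved from 0.12 to 1.95 at P28 and from -0.01 to 2.22 at P10 over all genes, and from 0.28 to 2.12 and from 0.36 to 2.60 over the release genes. Higher under all 3 scalings were Rab3d, Stx1a, Rab39, Unc13b and Stx5a at P28, and Stxbp5 besides these at P10. Counting each distinct position once, 3 starts were called at P28 and 4 at P10, within 5 kb 28 and 27, and without Syn1Cre animal 2, 3 or 6 the count at P28 was 8. With annotated starts alone, a choice made after the data were seen, it was 8 at P28.

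At the Rab3d start the Syn1Cre animals had 0, 4.2 and 7.84 IPM as the lowest, median and highest, the P10 animals 196, 289.6 and 262, and the P28 animals 99.2, 156, 146 and 86.6. With TMM the gain on the log2 scale was 3.55 at P10 (SE 0.32, edgeR adjusted p = 1.46e-10) and 2.76 at P28 (SE 0.28, adjusted p = 4.39e-10). Stx1a had 0, 1.29 and 3.99 at its start in Syn1Cre, 46.1, 55.7 and 31.5 at P10 and 17.2, 64.2, 48.6 and 29.4 at P28 (2.26, SE 0.59, and 2.31, SE 0.43). Rab39 had 1.12, 1.44 and 2.93, then 69.1, 44.6 and 62.9, then 25.9, 45.9, 54.7 and 24.2 (2.67, SE 0.51, and 2.23, SE 0.40). For these 3 starts every SP1 animal exceeded every Syn1Cre animal. Unc13b went from 1.41 ± 1.04 to 36.9 ± 6.84 and 22.6 ± 6.05, on 9, 10 and 25 insertions. All 4 of these starts passed the filter on low counts through the SP1 animals alone. Their fitted values, p-values and separation of animals are therefore descriptions, beside the fit with no such filter given above for P28. The GC boxes of these 4 genes are printed above. Stxbp5, the tomosyn gene whose product competes with Vamp2 for the target SNAREs, went from 2.18 ± 0.714 to 66.2 ± 10.6 at P10 and 17.2 ± 6.91 at P28. Stx5a went from 18.3 ± 2.87 to 158 ± 27.3 and 103 ± 34.3 near starts of its neighbours.

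The Syt1 and Syt4 starts did not gain in this way. Syt1 had 52.7, 63.4 and 87.7 IPM near its starts as the lowest, median and highest Syn1Cre animal, 57.6, 44.6 and 94.4 at P10 and 94.9, 55.1, 79 and 77.9 at P28. Syt4, for which both ends of the gene were used because the table used gives no start for it, had 76.8 ± 10.8, 88.6 ± 13.8 and 98.1 ± 20.4. The animals overlapped in both genes, and their fitted values with TMM (Syt1 -2.23 at P10 and -1.55 at P28, Syt4 -2.03 and -1.54) went to -0.01 and 0.24 for Syt1 and to 0.20 and 0.30 for Syt4 by total insertions. Rims1, lower over its whole locus, had 21.5 ± 2.52 near its start in Syn1Cre, 136 ± 17.1 at P10 and 72 ± 26.3 at P28, higher in all SP1 animals. It did not pass with TMM at either age (0.43 and -0.34). By total insertions Rims1 was higher at its start (2.68 and 1.56) and lower over its locus (-0.61 and -0.68).

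**Figure D4:**
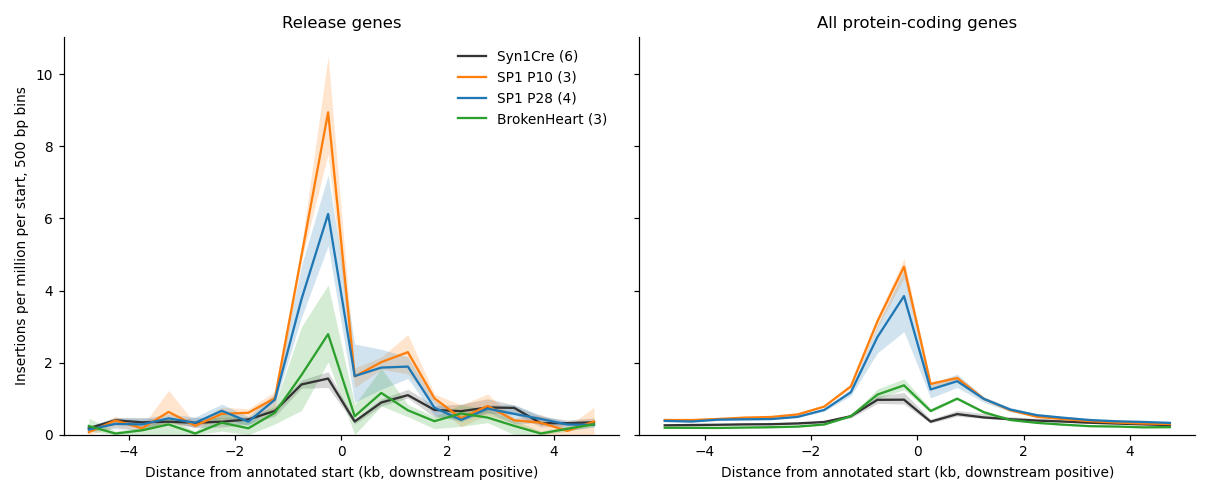
IPM per annotated start in 500 bp bins (vertical axis) by distance from the start in kb, downstream positive, for the release genes and for all protein-coding genes, with lines for group means and bands from the lowest to the highest animal. The SP1 P10 and P28 lines peak in the bin just upstream of the start, above Syn1Cre and BrokenHeart, in both panels.

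P28 was set against P10 to ask how the SP1 insertions differ with the day of collection. Of 31 release gene loci tested 4 were called (12.9%, against 11.2% of all 3460 loci), Vamp3, Syt1 and Rims2 higher and Rab3d lower at P28. Over all loci 66.8% of the calls were higher with TMM and 44.6% by total insertions. Syt1 had 699, 486, 595 and 713 IPM at P28 and 322, 379 and 357 at P10, without overlap (log2 fold change 0.96, SE 0.23, edgeR adjusted p = 0.00828). Rims2 had 465 ± 113 against 272 ± 25.9 (0.88, SE 0.23, adjusted p = 0.0161), and Rab3d 170.2 ± 27.8 against 338 ± 17.4 (-0.93, SE 0.21, adjusted p = 0.00676). Vamp3, a vesicle SNARE found widely outside neurons, had 95 ± 7.51 against 34 ± 31 on 104 and 9 insertions (1.64, SE 0.45, adjusted p = 0.0188). These calls rest on few animals: without P10 animal 3 there were 0, without P10 animal 2 there was 1, and without P10 animal 1 or P28 animal 1 there were 2. The animals shared sequencing pools in part: of 10 pools each, P28 animal 4 shared 9 with P10 animals 1 and 3, and P28 animal 3 shared 8 with P10 animal 2, while P28 animal 1 shared 0. In those 5 animals with the pool as a block, a fit added after the data were seen, 5 of 28 release gene loci were called, beside 20.7% of all 3059. They were Syt1 (1.14), Rims2 (0.93), Rab3d (-0.90), Snap25 (0.77) and Stxbp6, and Vamp3 was not tested. Stxbp5 (-0.57) and Rab3il1 (-0.52) were the next lowest and did not pass. Of 4 release gene starts tested (Rab3d, Stx5a, Rims1, Syt4), 0 passed by edgeR and 0 by DESeq2, with 2 at an unadjusted p under 0.05, and of all 487 starts tested 24 were called (4.93%). Of the other vesicle release genes 4 of 18 were higher at P28. Astrocyte markers were higher too, 3 of 5 tested, with a summed level of 1195 to 2564 IPM at P28 and 955 to 1259 at P10, and their part was not tested.

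BrokenHeart, read from DNA, was set against C57bl6J, read from RNA. Of 23 loci tested 5 were called, 21.7% against 39.9% of all 1879 loci, a smaller share than the background. Over all loci 47% of the calls were higher in BrokenHeart with TMM and 52.7% by total insertions. Syt4 had 85.8, 50.9 and 47 IPM in BrokenHeart against 138 and 149 (log2 fold change -1.31, SE 0.37, edgeR adjusted p = 0.00489). Cplx2 had 75.9 ± 8.6 (n = 3) against 137 ± 24.3 (n = 2), Rab3c 221 ± 55.8 against 345 ± 2, and Rims2 379 ± 19.9 against 510.2 ± 40.9 (log2 fold changes -0.91, -0.61 and -0.50). Stx6, a syntaxin of endosomes and Golgi, was higher, with 85.8, 102 and 141 against 42.7 and 42.1 (1.25, SE 0.40, adjusted p = 0.0124). The groups did not overlap for any of the 5. With 3 animals against 2 they did not overlap at Snap91, Stxbp4, Rab30, Rims1 and Snap25 either, which were not called. How often the groups do not overlap over all loci was not counted. The BrokenHeart values rest on 12 insertions at Syt4, 15 at Cplx2 and 21 at Stx6. Without C57bl6J animal 2 there were 0 calls, without C57bl6J animal 1 there were 3, and without BrokenHeart animal 2 there were 9. Snap25 (-0.62), Snap91 (0.62) and Stxbp4 (0.58) did not pass, and the call of Cplx2 was lost by total insertions (adjusted p = 0.0642). Distinct positions or gene bodies alone gave 3 calls, insertions with at least 2 reads gave 2, and no filter gave 15. Of the neuron markers 3 of 6 were lower in BrokenHeart and 1 higher, and of the astrocyte markers 2 of 4 were higher (summed 784 to 1364 IPM against 569 to 594), and their part was not tested. The median was -0.07 for the release genes and 0.04 for all loci. The viruses and the molecule read cannot be told apart here.

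Rbp4Cre_TRAP against Syn1Cre called 4 of 81 release gene loci, all lower (4.94%, against 2.09% of all 10693 loci). Of all calls 9.38% were higher with TMM and 42.6% by total insertions, and the median locus went from -0.31 to -0.07. Rims2, an active zone organiser, had 421, 298, 349 and 287 IPM in the Rbp4Cre_TRAP animals against 497, 595 and 724 as the lowest, median and highest in Syn1Cre (log2 fold change -1.03, SE 0.21, edgeR adjusted p = 0.00507). Unc13c had 52.6, 39.7, 25 and 41 against 92.9, 137 and 162 (-1.93, SE 0.44, adjusted p = 0.0141). Stxbp5 had 52.6, 59.6, 25 and 41 against 97, 111 and 144 (-1.54, SE 0.42, adjusted p = 0.0425). Syt10, a calcium sensor of growth factor vesicles in olfactory neurons, had 0 insertions in the 4 animals against 36.1, 42.3 and 53.1, at least 2.51-fold lower with a floor of 3 counts over the group (adjusted p = 0.0203). Animals did not overlap at any of the 4, nor at Syt3, Rab3il1 and Stxbp5l, which were not called. The TRAP tables held 24408 to 57014 insertions, and Unc13c and Stxbp5 rest there on 7 and 8 insertions. Without Rbp4Cre_TRAP animal 3 there was 1 call, and without animal 1 or 2 there were 2. Tissue differs too, whole forebrain against cortex, so tissue, RNA source and Cre line cannot be told apart. By total insertions the call of Stxbp5 was lost (-1.30, adjusted p = 0.129). DESeq2, or insertions with at least 2 reads, gave 2 calls. Astrocyte markers summed to 238 to 737 IPM against 725 to 2342 in Syn1Cre, and 1 of 10 was lower. Of the other vesicle release genes 41 were tested and none passed by edgeR.

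The strand of insertions relative to the gene was counted over the bodies of the 81 release genes with a known strand. The tables do not state whether their strand is that of the read or of the transposon, so the share may stand for its complement. In Syn1Cre 64.4% ± 0.924 (SD, n = 6) of release gene insertions were listed on the gene's strand, against 52.2% ± 0.791 over 17274 genes. In GFAPCre it was 64.2% ± 1.49 against 52.4%, and in Rbp4Cre_TRAP 65.6% ± 3.85 against 54.5%. The SP1 groups had 49.8% ± 1.32 at P10 and 56.4% ± 1.19 at P28, against 42.7% and 45.8% over all genes. BrokenHeart, read from DNA, had 47% ± 3.87 (n = 3), against 48.4% over all genes. In C57bl6J, Syn1Cre, Syn1CreNeg, GFAPCre, GFAPCreNeg and both SP1 groups the mean of the release genes lay above that of all genes, and in BrokenHeart it lay below.

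Syt1 was far from an even split in Syn1Cre and C57bl6J. In Syn1Cre 6075 of its 7562 body insertions, 80.3% (95% exact binomial interval 79.4 to 81.2%), were on its strand, and in C57bl6J 3141 of 4152, 75.7% (74.3 to 76.9%). In BrokenHeart it was 92 of 198, 46.5% (39.4 to 53.7%). Without Syt1 the release genes had 58.3% in Syn1Cre, 59.2% in C57bl6J and 48.8% in BrokenHeart. Among the other long release genes of Syn1Cre, chosen after their values were seen, Bsn had 69.4%, Rab3c 67.7%, Pclo 65.6% and Rims1 64.8%, whereas Unc13b had 33% of 640. These shares are described and were not tested, and the intervals cover counting error alone.

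**Figure D5:**
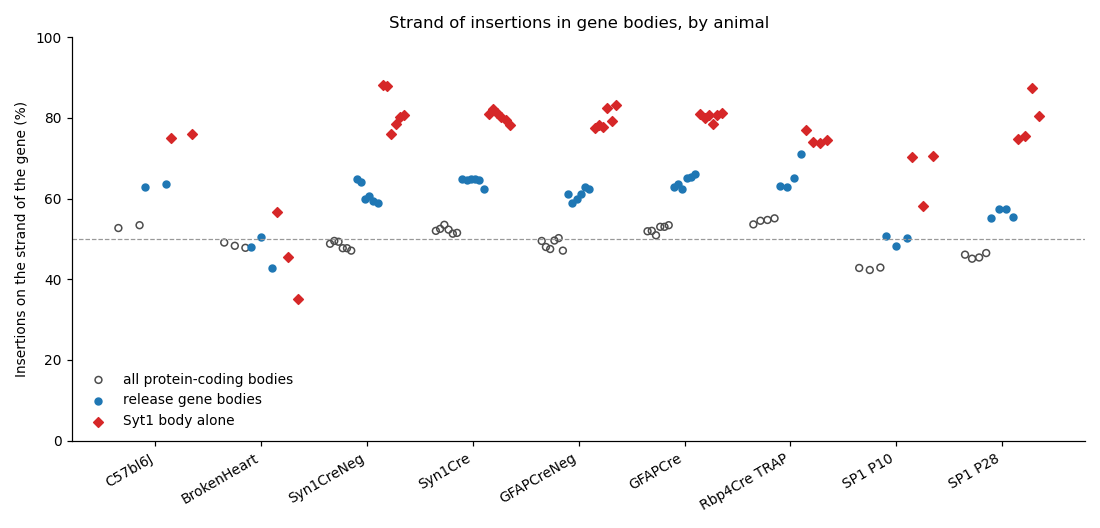
Percentage of gene body insertions listed on the strand of the gene (vertical axis, 0 to 100), 1 point per animal, for all protein-coding genes with a strand, for the 81 release genes and for Syt1 alone, with a dashed line at 50. Syt1 stands at 75.1% to 82.3% in the C57bl6J and Syn1Cre animals and the 3 BrokenHeart animals spread around the dashed line.

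Insertions in N2a cells had another distribution over the release genes, set here beside the C57bl6J cortex as values without a test. In N2a Pclo had 2 insertions, 2.48 IPM (95% Poisson interval 0.3 to 8.96), against 137 and 182 in the 2 C57bl6J animals. Rims1 had 27.3 (17.1 to 41.3) against 399 and 402, Stxbp6 4.96 (1.35 to 12.7) against 155 and 150.5, and Syt13 0 insertions (up to 4.57) against 64 and 50.8. Higher in the line were Sv2c, with 601 (549 to 657) against 95.7 and 103, Syt9 with 424 (380.2 to 471) against 66 and 58.1, and Syn2 with 439 (394 to 487) against 127 and 136. These genes were chosen after their values were seen. Syt1 stood at 718 (660.5 to 779) there against 1109 and 1132.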

How the data were processed

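The authors' deposited tables list transposon insertions, 1 line per insertion with its position and read count, mapped to mm10 with Novoalign and Bowtie2 per the submitters' processing notes, whose versions are not given in the sources used here. Lines were counted per gene locus (body with 10 kb flanks) and within 1 kb of starts, so 1 site recovered several times counts several times. Animals, 46 in 11 groups, were the replicates. Counts were tested with edgeR 4.0.16 (R 4.3.3): filterByExpr on low counts, TMM scaling, the quasi-likelihood test and Benjamini-Hochberg adjustment over all loci or starts, with a threshold of 0.05. Scaling by total insertions and DESeq2 1.42.0 were the 2 other scalings. The code was tested on simulated data. Total insertions per table set the precision. Intervals are 95% exact and cover counting error alone, and a count of 0 was bounded with 3 counts over the group. Genes named were those past the threshold (at most 10 per comparison by size), the 3 highest and 3 lowest, 14 core genes, and the extremes of density and of SP1 starts. The members and lists were chosen with earlier results of these data known. Some results are not reported here. The promoter windows come from RefSeq (GRCm38.p6). Strand, N2a and single sites were chosen for naming after their values were seen, and the fit of the difference between Cre lines was added then.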

Additional observations from a re-analysis of the deposited data

Results flagged for a closer look

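Of 90 combinations of a core gene, or the summed share, and a group of 4 to 6 animals, 5 had 1 animal far from the others. Chance flags about 1 in 20 groups where values follow a normal distribution, which low counts need not do. Syn1 had 59.6 insertions per 1000000 (IPM) in Syn1Cre animal 2, against 27.8 to 38.4 in the other animals. Unc13a had 27.5 in Syn1Cre_SP1_P28 animal 2, against 73.3 to 79. Syp had 0 in GFAPCreNeg animal 6, against 16.7 to 22.2. In Rbp4Cre_TRAP animal 3, Stx1a had 0 against 35.1 to 41, and Syp had 25 against 0 in each of the others. These Rbp4Cre_TRAP values rest on 5 insertions at Stx1a and 1 at Syp over the 4 animals.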

How the results depend on the processing

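Counts below are release genes called, and where a count moved the cause was not tested. For Syn1Cre against GFAPCre (1 call) total insertions gave 2, distinct positions 2, gene bodies 3 and animals 1 to 3 of each group 3, and leaving out 1 animal gave 1 to 2. For Syn1Cre against Syn1CreNeg (16) all 20 alternatives stayed within 1.5 times, 11 to 21. For GFAPCre against GFAPCreNeg (3) gene bodies gave 6, the shared pool as a block 0 and leaving out 1 animal 1 to 7. For SP1 P28 against Syn1Cre (53) gene bodies gave 29, and leaving out 1 animal 45 to 56. For SP1 P10 against Syn1Cre (41) the alternatives gave 29 to 44. For P28 against P10 (4) distinct positions gave 2, gene bodies 2 and leaving out 1 animal 0 to 5. For BrokenHeart against C57bl6J (5) no filter gave 15, distinct positions 3, at least 2 reads 2, gene bodies 3 and leaving out 1 animal 0 to 9. For Rbp4Cre_TRAP against Syn1Cre (4) DESeq2 gave 2, at least 2 reads 2 and leaving out 1 animal 1 to 4. For starts at P28 (13) DESeq2 gave 8, no filter 29, 5 kb 28, distinct positions 3, annotated starts alone, added after the data were seen, 8, and leaving out 1 animal 8 to 15. For starts at P10 (15) 5 kb gave 27 and distinct positions 4. For starts of P28 against P10 (0) 5 kb gave 2 and leaving out 1 animal 0 to 1, and with distinct positions no release gene could be tested. With the replicate block, whose numbers did not pair the animals, the counts were 1, 14, 3, 50, 41, 5, 4 and 2 for the loci in the order above, 10 and 7 for starts at P28 and P10, and 0 for starts of P28 against P10. By total insertions the start values of P28 turned from below to above 0 at Rab30 (0.87), Rab31 (0.89), Rab36 (0.98), Rims1 (1.56), Snap91 (0.89), Stx3 (1.80), Syt1 (0.24) and Syt4 (0.30), and those of P10 at Rab31 (1.18), Rab36 (0.70), Snap91 (0.86), Stx3 (1.83), Stx4a (1.43) and Syt4 (0.20), since the median of all starts moved with the scale. Over the single genes named by rule 2497 alternatives kept direction and side of the threshold, 123 lost the call, 42 gained it, 56 moved and 7 reversed. Depth limited several values: 3 insertions or fewer stood behind those of Stx18, Syt10 and Syn1 at P10.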
